A study of Homo sapiens with 16 samples.

Results

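This account covers the small nucleolar RNA genes and the small Cajal body RNA genes in IMR32 cells, a human neuroblastoma line, after knockdown of TPX2, a spindle protein that activates the kinase AURKA. They were taken as every entry of the deposited count table whose symbol begins with SNORD, SNORA or SCARNA followed by digits. Of the 58787 Ensembl genes in the table, 552 met that rule, and they carry 471 distinct symbols. 314 were SNORD genes, 213 were SNORA genes and 25 were SCARNA genes.

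The cells had received 1 of 3 small interfering RNAs (siRNAs) against TPX2, which the labels name si45, si46 and si47, or a non-targeting siRNA, siNTC. Each group had 4 libraries, described in the series as biological replicates, so 12 knockdown libraries were set against 4 control libraries. All groups share the cell line, and the column names of the table give 48 h for every library. IMR32 is a single established line, and the labels call its cells neuroblasts. All 11 adrenergic neuroblast markers examined were above 1 CPM (counts per 1000000 counts of the library) on average, and the 4 immune and 3 endothelial markers were all below it. Of 8 mesenchymal or Schwann-like markers 3 were above it, VIM, FN1 and YAP1, and their summed level per library was 229 to 257 CPM with siNTC, 267 to 324 with si45, 248 to 323 with si46 and 236 to 279 with si47. Of 5 fibroblast markers COL1A1 alone was above it, and the 5 summed to 25.2 to 50.3, 21.7 to 38.4, 24.7 to 65.2 and 19.02 to 52.5 CPM in the same order. Their part in the results was not tested. TPX2 itself fell from 327 ± 27.1 CPM (SD, n = 4) with siNTC to 91.6 ± 19.8 with si45, 81.7 ± 14.3 with si46 and 71.5 ± 3.37 with si47. Library totals ran from 5318159 to 7864343 counts.

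Small nucleolar RNAs guide chemical changes of ribosomal RNA. Box C/D RNAs, named SNORD, pair with rRNA so that fibrillarin can methylate a ribose, and box H/ACA RNAs, named SNORA, place a uridine for conversion to pseudouridine by dyskerin. Small Cajal body RNAs, named SCARNA, do the same for spliceosomal RNAs and may carry either kind of box or both. Most human members lie in introns of host genes and are trimmed from the excised intron, while a few, such as those for the U3 and U13 RNAs, have promoters of their own. Mature forms end without a poly(A) tail, so a 3' end library that primes on poly(A) is not designed to capture them, and the counts do not say which form of an RNA a read came from.

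The boxes are shown first because they define the classes compared. The sequences are from GENCODE v29 transcripts on GRCh38, 5′ to 3′ on the RNA's own strand, with T for U and each 30 bases long. Capitals mark the C box TGATGA near the 5' end of a box C/D RNA, the D box CTGA near its 3' end, or the ACA of a box H/ACA RNA. The first set holds box C/D genes that were higher after TPX2 knockdown.
SNORD83A 5' end (chr22:39315278-39315307, minus strand): gctgttcgtTGATGAggctcagagtgagcg
SNORD83A 3' end (chr22:39315213-39315242, minus strand): attctctactgccttccttCTGAgaacagc
SNORD12B 3' end (chr20:49280380-49280409, plus strand): tctaagccagtttctgtCTGAtatgccagc
SNORD14E 3' end (chr11:123058077-123058106, minus strand): ggcaactaccttccttggatgtCTGAgtga
SNORD3A 3' end (chr17:19188203-19188232, plus strand): gtgagagggagagaacgcggtCTGAgtggt

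The second set holds the 3' ends of the 5 SNORA80 genes, shown because they are close copies of which only SNORA80B, SNORA80D and SNORA80E passed the test for a rise across the 3 siRNAs, and the 3' ends of the small Cajal body RNA genes SCARNA21, which rose, and SCARNA22, the member with the highest CPM.
SNORA80A 3' end (chr21:32377187-32377216, minus strand): gctgctggcactgaagtgggttgcACAata
SNORA80B 3' end (chr2:10446714-10446743, minus strand): gctgctggcactgaagtgggttgcACAgtg
SNORA80C 3' end (chr16:30419625-30419654, minus strand): gctgctggcactgaagtgggttgcACAgta
SNORA80D 3' end (chr7:6016982-6017011, plus strand): gccactggcactgaagagggttacACAgtg
SNORA80E 3' end (chr1:155919909-155919938, minus strand): gctgtgagcactgaagggggttgcACAgtg
SCARNA21 3' end (chr17:7906231-7906260, plus strand): cctctcctgggctgtcctagcctcACAttt
SCARNA22 3' end (chr4:1974731-1974760, plus strand): acacaggacaccacggttttcagtACAaca

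The names and the boxes matched for most members. A D box, the letters CTGA on the RNA strand within the last 20 bases, was found in 92.0% of the SNORD genes, 7.98% of the SNORA genes and 8 of the 25 SCARNA genes. The letters ACA exactly 3 bases from the end were found in 67.1% of the SNORA genes, 1.59% of the SNORD genes and 14 of the 25 SCARNA genes. A C box in the first 20 bases was found in 65.3% of the SNORD genes and 0.469% of the SNORA genes. A match is a description of these letters only.

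Most members had no counts. The treatment of reads that fit several copies is not given, and 32 members lie in 14 groups of identical sequence. A count of 0 therefore need not mean that no read came from the RNA. 338 of the 552 were at 0 in all 16 libraries, 214 had at least 1 count in some library, and 57 had counts in all 16. At 0 in every library were SNORD118, the gene of the U8 RNA that acts in large-subunit rRNA maturation, SNORA73A, SCARNA2 and SCARNA10. SNORA73B, a box H/ACA RNA of the host SNHG3, had 0 to 11 counts per library. In the imprinted clusters, 49 of the 50 SNORD115 genes and 14 of the 33 SNORD116 genes were at 0 throughout. The low-count filter kept 63 members for testing, namely 21 SNORD, 31 SNORA and 11 SCARNA genes, and 489 were not tested, 151 of which had counts.

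With the mean of the 3 siRNAs set against siNTC, 18 of the 63 tested members rose and none fell. Over all 14193 genes tested, 3.61% rose and 3.53% fell. The 18 were 9 box C/D genes, 8 box H/ACA genes and 1 small Cajal body RNA gene. The box C/D genes were SNORD3A, SNORD3B-1, SNORD3B-2, SNORD12B, SNORD13, SNORD14E, SNORD46, SNORD83A and SNORD117. The box H/ACA genes were SNORA2A, SNORA2B, SNORA7B, SNORA28, SNORA65, SNORA80B, SNORA80D and SNORA80E, and the remaining gene was SCARNA21. The share is not a measure of how often members respond, because the filter admits a gene that is high in 1 group alone. Of the 18, 12 reached the filter's minimum of 1.68 CPM in no control library, 4 reached it in some and 2, SNORD13 and SNORD3A, reached it in all 4. Of the 16 tested members that reached it in no control library, 12 rose and 0 fell. Of the 329 such genes in the whole table, 108 (32.8%) rose and 0 fell. A gene admitted that way has almost no room to fall, so the absence of falls among such members carries no information. Among the 25 tested members that reached the minimum in all control libraries, SNORD13 and SNORD3A rose, or 8.0%, beside 3.01% of the 12077 genes of the whole table that did. Without siNTC replicate 1, 11 of the 18 calls were left; SCARNA21, SNORA28, SNORA2A, SNORA65, SNORA7B, SNORD117 and SNORD3A no longer passed. Leaving out siNTC replicate 2, 3 or 4 ended 2, 4 or 6 of the calls, and leaving out any 1 of the knockdown libraries ended none. In bulk RNA, more cells that contain a transcript and more RNA per cell cannot be told apart.

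**Figure D1:**
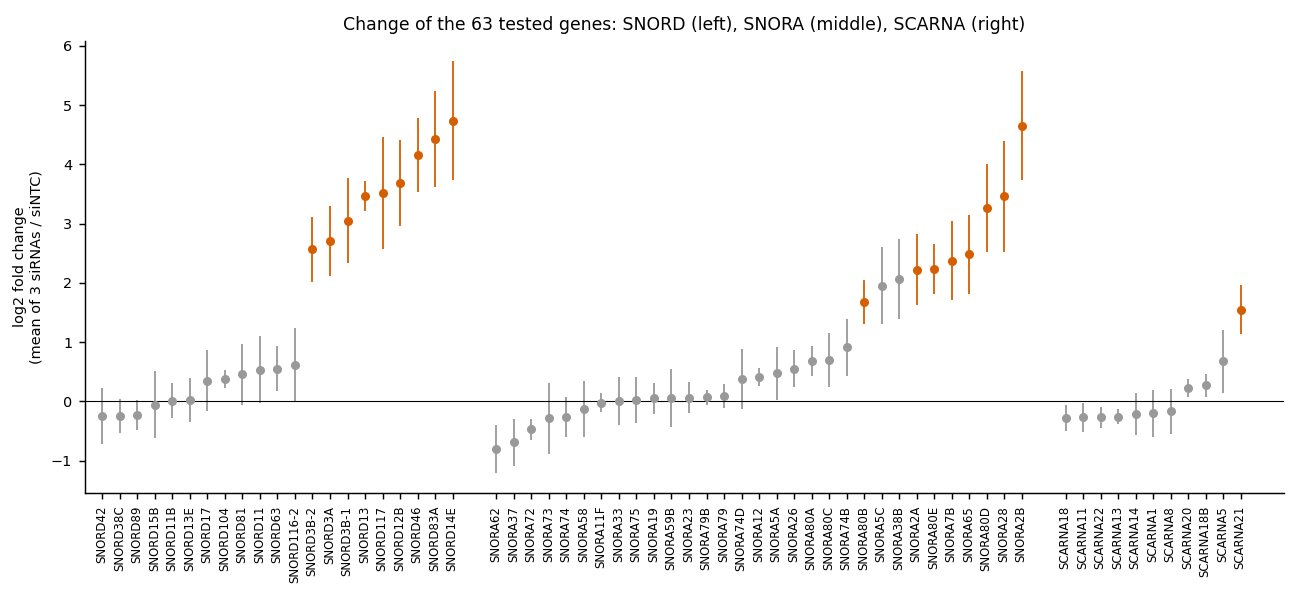
Log2 fold change (y axis) of the 63 tested genes, mean of the 3 siRNAs over siNTC, in the order SNORD, SNORA, SCARNA; points are estimates, bars are 1 standard error, and orange marks the 18 genes past the threshold. All 18 lie above 0, and the other 45 lie on both sides of it, 27 above.

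The small RNAs with promoters of their own come first. SNORD13 encodes the U13 RNA, which pairs with small-subunit rRNA, and lies at chr8:33513475-33513578 on the plus strand, opposite the gene TTI2. Its level was 5.61, 9.38, 7.56 and 5.55 CPM in siNTC replicates 1 to 4. It was 74.5, 52.9, 37.6 and 47.5 CPM with si45, 94.4, 60.7, 62.1 and 79.2 with si46, and 168, 101, 106 and 101 with si47. Every knockdown library was above every control library, and the lowest knockdown value was well clear of the highest control value. The raw counts behind these values were 32 to 60 per control library and 217 to 1068 per knockdown library. The log2 fold change of the mean contrast was 3.46 ± 0.256 (SE; edgeR quasi-likelihood test, adjusted p = 7.6e-07). SNORD13 was called with each siRNA, at log2 fold changes of 2.92 with si45, 3.40 with si46 and 4.08 with si47. SNORD13E, a copy with 88.5% identity in an intron of DENND4A, had a log2 fold change of 0.02 ± 0.372 (adjusted p = 0.99). Whether reads were counted by strand is not given in the sources used here, so reads of SNORD13 and of TTI2 cannot be told apart on that ground.

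SNORD3A, SNORD3B-1 and SNORD3B-2 encode copies of the U3 RNA, which base-pairs with the rRNA precursor and is needed for its early cleavages. SNORD3A (chr17:19188016-19188714, plus strand) stood at 4.01, 4.22, 3.59 and 10.4 CPM in siNTC replicates 1 to 4. It stood at 33.5, 33.5, 10.2 and 16.5 CPM with si45, 57.9, 54.0, 16.3 and 37.8 with si46, and 64.9, 79.3, 14.8 and 37.6 with si47. One library, si45 replicate 3 at 10.2 CPM, lay below the highest control library, and the other 11 knockdown libraries lay above all controls. The log2 fold change was 2.71 ± 0.588 (adjusted p = 0.015), and without siNTC replicate 1, 2 or 3 the adjusted p rose to 0.059, 0.057 or 0.056. SNORD3B-2 (chr17:19063346-19064136, minus strand) rose by 2.57 and SNORD3B-1 (chr17:19061912-19062669, plus strand) by 3.05 on the log2 scale. The 217-base transcripts of the latter pair are identical, and each has 99.5% identity with SNORD3A, so how their reads were divided is uncertain. The 3 gene models reach beyond the 217 bases of the mature RNA, and the table does not say where in the model a read fell. Of the 11 SNORD3 genes, 6 were at 0 throughout, and SNORD3C, with 99.5% identity to SNORD3A, had 0 to 8 counts per library and was not tested.

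**Figure D2:**
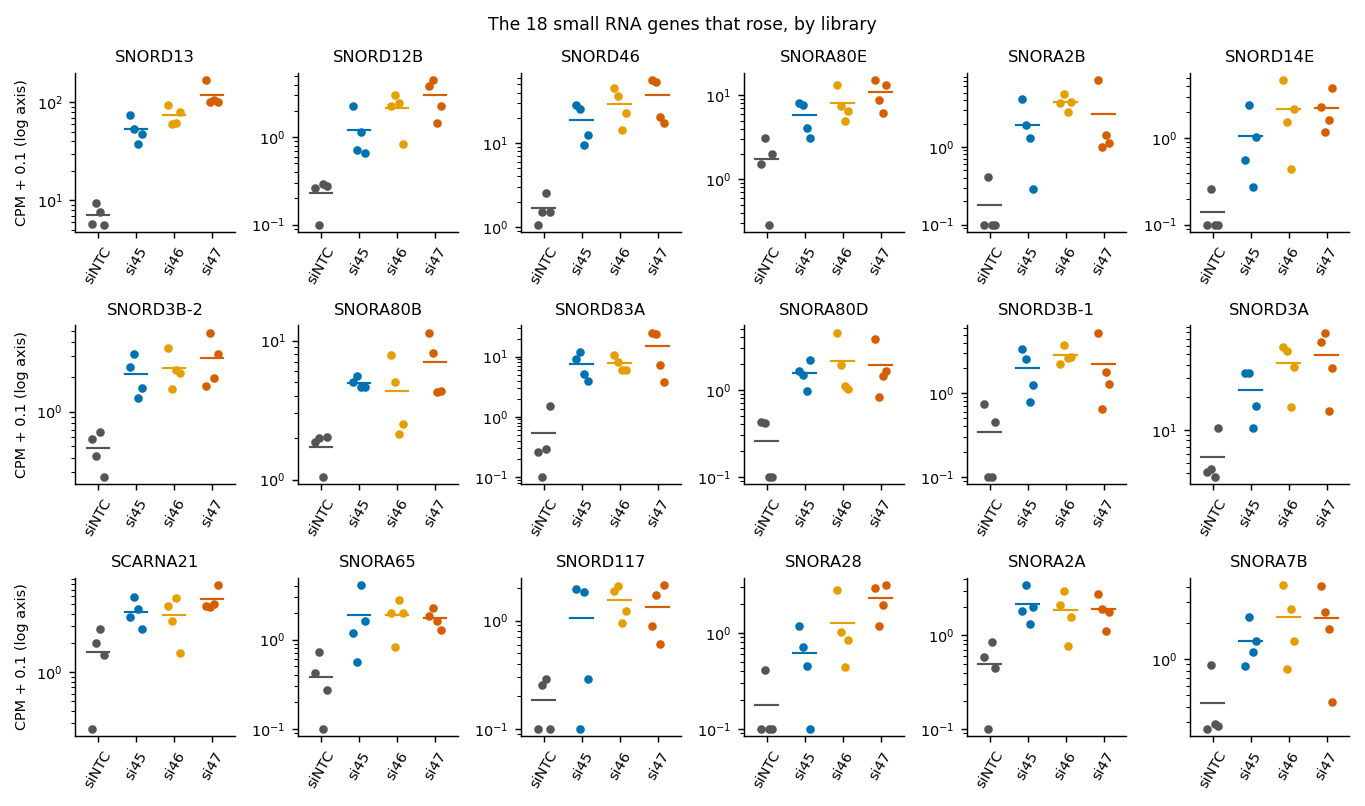
Level (y axis, CPM + 0.1, log axis) of the 18 genes that rose, 1 panel per gene, in the 4 libraries of each group (x axis); points are libraries and lines are group means. In 9 of the 18 panels, SNORD13 among them, siNTC shows no overlap with any knockdown group. The remaining panels, such as SNORA7B, SCARNA21 and SNORA28, overlap.

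Among box C/D RNAs in introns, SNORD46 had the most counts after knockdown. It guides methylation of large-subunit rRNA. Its control libraries had 0.962, 1.41, 2.46 and 1.39 CPM. With si45 the level was 28.3, 25.7, 9.36 and 12.3 CPM, with si46 44.7, 36.2, 14.3 and 22.7, and with si47 55.6, 53.9, 20.2 and 17.4. The groups did not overlap, and in each knockdown group replicates 1 and 2 were both above replicates 3 and 4. The log2 fold change was 4.15 ± 0.623 (adjusted p = 0.0013), from 36 counts over the 4 control libraries and 2102 over the 12 knockdown libraries.

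SNORD83A (chr22:39315213-39315307, minus strand), in an intron of the ribosomal protein gene RPL3, had 1, 0, 1 and 8 raw counts in siNTC replicates 1 to 4. It had 59, 78, 29 and 20 counts with si45, 83, 45, 35 and 32 with si46, and 159, 129, 43 and 22 with si47. Its groups did not overlap in CPM either, and its log2 fold change was 4.42 ± 0.807 (adjusted p = 0.0040). SNORD46 and SNORD83A are the 2 intron-encoded box C/D genes called with each of the 3 siRNAs.

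The other box C/D genes that rose had very few control counts, so their folds have wide counting intervals. SNORD12B, in an intron of the long non-coding RNA ZFAS1 (chr20:49280319-49280409, plus strand), had 1, 0, 1 and 1 counts in the controls and 3 to 24 in the knockdown libraries. The ratio of its counts per library total, knockdown over control, was 16.01 with a 95% exact counting interval of 5.37 to 78.5. SNORD14E, a U14 copy in an intron of the chaperone gene HSPA8 (chr11:123058077-123058161, minus strand), had 1 count over the 4 controls and 132 over the knockdown libraries, a ratio of 43.1 (7.61 to 1716). SNORD117, in an intron of the RNA helicase gene DDX39B (chr6:31536374-31536449, minus strand), had 2 control counts and 88 knockdown counts, a ratio of 14.4 (3.86 to 121). These intervals cover counting error only. The libraries of SNORD12B and SNORD14E did not overlap between knockdown and control, whereas SNORD117 was at 0 in si45 replicate 2.

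The SNORD14 genes fixed for description behaved unequally. U14 pairs with small-subunit rRNA and is also needed for rRNA processing. Of 6 SNORD14 genes, 4 were at 0 throughout, among them SNORD14C and SNORD14D of the same host as SNORD14E. SNORD14A, in an intron of RPS13, had 1 count over the controls and 0 to 10 per knockdown library, too few for the filter. Without that filter its log2 fold change was 3.73 (adjusted p = 0.028).

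Of the box H/ACA genes, 8 of the 31 tested rose, beside 9 of the 21 box C/D genes, and the difference between the classes was not tested. The SNORA80 genes, all with counts in every group, allow copies to be compared. SNORA80E (chr1:155919909-155920045, minus strand), in an intron of KHDC4, stood at 1.44, 2.97, 0.189 and 1.91 CPM in the controls. Its level was 8.07, 7.64, 3.99 and 3.03 CPM with si45, 13.3, 7.27, 4.88 and 6.33 with si46, and 14.9, 8.71, 6.05 and 13.2 with si47. All knockdown libraries lay above all controls, though si45 replicate 4 lay only just above siNTC replicate 2. The log2 fold change was 2.23 ± 0.417 (adjusted p = 0.0013).

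SNORA80B (chr2:10446714-10446849, minus strand), in an intron of the polyamine synthesis gene ODC1, stood at 1.62 ± 0.456 CPM (SD, n = 4) with siNTC. Its means were 4.88 ± 0.466 with si45, 4.27 ± 2.63 with si46 and 6.93 ± 3.42 with si47. The lowest knockdown library, at 2.02 CPM, was above the highest control, at 1.91. Its log2 fold change was 1.68 ± 0.367 (adjusted p = 0.0029). SNORA80D (chr7:6016877-6017011, plus strand), in an intron of AIMP2, had 4 control counts and 136 knockdown counts, with no overlap of libraries and a log2 fold change of 3.27 ± 0.746 (adjusted p = 0.0044).

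SNORA80A, in an intron of URB1, and SNORA80C, with no host by the rule used, had log2 fold changes of 0.68 ± 0.251 (adjusted p = 0.10) and 0.70 ± 0.463 (adjusted p = 0.42). SNORA80A passed the threshold with si46 alone (adjusted p = 0.049). Identity among the 5 copies ran from 75.5% to 91.9%, and the highest was between SNORA80A, which was not called in the mean contrast, and SNORA80B, which was. Where reads fit several copies equally, their division among the copies is uncertain.

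SNORA2A and SNORA2B lie in separate introns of KANSL2, a gene for a subunit of a histone acetyltransferase complex. SNORA2B (chr12:48667457-48667593, minus strand) had 0, 2, 0 and 0 control counts. It had 26, 12, 7 and 1 counts with si45, 28, 26, 16 and 20 with si46, and 45, 5, 8 and 6 with si47. The ratio of knockdown to control counts was 32.7 (95% exact counting interval 8.93 to 272), and si45 replicate 4 lay within the control range. SNORA2A (chr12:48656648-48656782, minus strand) rose by 2.23 on the log2 scale (adjusted p = 0.018), and the third copy in that host, SNORA2C, had 12 counts over all 16 libraries and was not tested.

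The remaining box H/ACA genes that rose were low in every group. SNORA28, in an intron of the translation factor gene EIF5 (chr14:103337849-103337974, plus strand), guides a change in small-subunit rRNA. It had 2 control counts and 98 knockdown counts, a ratio of 16.01 (4.32 to 134). SNORA65, in an intron of RPL12 (chr9:127448501-127448630, minus strand), had 7 control and 125 knockdown counts, and SNORA7B (chr3:129397210-129397348, minus strand) had 8 and 140. SNORA7B has no host by the rule used and has 98.6% identity with SNORA7A, which was at 0 in every library.

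SCARNA21 (chr17:7906122-7906260, plus strand) was the only small Cajal body RNA gene called among the 11 tested. It lies in an intron of CHD3, a chromatin remodeller gene. It stood at 0.160, 1.88, 2.65 and 1.39 CPM in the controls. With si45 it was at 3.57, 5.81, 4.33 and 2.65 CPM, with si46 at 4.68, 3.27, 5.72 and 1.49, and with si47 at 4.72, 4.54, 4.87 and 7.79. Library si46 replicate 4 fell within the control range. The log2 fold change was 1.55 ± 0.409 (adjusted p = 0.015).

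Most of the abundant members were not called. SCARNA22 (chr4:1974636-1974760, plus strand), in an intron of the histone methyltransferase gene NSD2, had the highest CPM of all members, 527 ± 193 with siNTC, 456 ± 84.9 with si45, 439 ± 77.8 with si46 and 419 ± 42.7 with si47. Its log2 fold change was -0.27 ± 0.182 (adjusted p = 0.46). The control libraries held both its highest and its lowest value, 796 CPM in replicate 2 and 335 in replicate 1. SNORD13 was next by mean CPM, followed by SNORA12, SNORA79B, SNORA79 and SNORD104. Their log2 fold changes were 0.42 for SNORA12, 0.07 for SNORA79B, 0.10 for SNORA79 and 0.37 for SNORD104, with adjusted p of 0.10, 0.81, 0.84 and 0.14. SCARNA22 had at least 1946 counts in every library and SNORA12 at least 116.

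In all 12 knockdown libraries at once, 9 of the 63 tested members were above all 4 controls, beside 1.49% of all genes tested, and 0 were below all 4, beside 1.03%. The 9 were SNORD12B, SNORD13, SNORD14E, SNORD3B-2, SNORD46, SNORD83A, SNORA80B, SNORA80D and SNORA80E. The same filter limit holds for this count.

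The siRNAs were then taken one at a time; they share the siNTC libraries, so these comparisons are not independent. With si45, 5 members rose and none fell, beside 1.01% and 0.324% of all genes; they were SNORD13, SNORD46, SNORD83A, SNORD3B-2 and SNORA2B. With si46, 17 rose, 15 of them among the 18 of the mean contrast, and none fell, beside 2.14% and 1.25%. With si47, 18 rose, the same 18 as in the mean contrast, and 1 fell, beside 4.91% and 4.83%. The gene that fell was SNORA72 in an intron of NUCKS1, at 13.1 ± 1.51 CPM with siNTC and 7.73 ± 1.73 with si47, a log2 fold change of -0.75 ± 0.227 (adjusted p = 0.029). SNORA5C and SNORA80A were called with si46 and not in the mean contrast. Fits of only the groups compared called 8 members with si46 and 10 with si47, and with si45 DESeq2 called 9 and edgeR without the low-count filter 11. With at least 10 counts required in every library, 1, 3 and 3 members were called with si45, si46 and si47. The count with si45 depended on single libraries: it was 11 without si45 replicate 3, 1 without si45 replicate 1 or 2 or without siNTC replicate 1 or 3, and 2 without siNTC replicate 2 or 4. SNORD13 was called in each of these 8 refits. With si46 the count was 7 without si46 replicate 1, 10 and 11 without si46 replicate 2 and 4, and 9, 9 and 10 without siNTC replicate 1, 3 and 4. The shares of all genes given above belong to the main edgeR fit and not to these other settings and refits.

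Group means of SNORD13 were 53.1 ± 15.6 CPM with si45, 74.1 ± 15.9 with si46 and 119 ± 32.6 with si47 (SD, n = 4). A direct test between siRNAs called no member in any of the 3 pairs with edgeR, where the share of all genes called was 0.0282% for si46 against si45, 0.169% for si47 against si45 and 0.0493% for si47 against si46. At an unadjusted p under 0.05 there were 3, 14 and 3 members in those pairs, and DESeq2 called 0, 1 and 0. SNORD13 came closest, with a log2 difference of 1.16 ± 0.224 between si47 and si45 (adjusted p = 0.054). Libraries of si45 and si47 that carry one replicate number deviated together, and with that number as a block 3 members were higher with si47 than with si45, beside 2.8% of all genes called either way. They were SNORD13 at 1.17 (adjusted p = 6.8e-07), SNORD46 at 0.93 (adjusted p = 0.0032) and SCARNA20 at 0.61 (adjusted p = 0.013) on the log2 scale. SCARNA20, in an intron of USP32, stood at 25.1 ± 5.15 CPM with si45, 38.2 ± 4.92 with si47 and 26.7 ± 7.28 with siNTC.

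The level after knockdown also differed by replicate number. Averaged over the 3 siRNAs, replicates 1 and 2 were above replicates 3 and 4 by a ratio of 2.54 for SNORD46, 2.79 for SNORD83A, 2.43 for SNORD3A and 1.93 for SNORA80B, and in each of the 3 groups for these 4 genes. The ratio was 1.27 for SNORD13, 0.990 for SCARNA21 and 0.633 for SNORA65. The labels do not say what a replicate number marks. Set against the control library of the same number, the knockdown library was higher in 12 of 12 cases for SNORD13, SNORD46, SNORD83A and SNORD3A, and in at least 11 of 12 for each of the 18 genes.

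**Figure D3:**
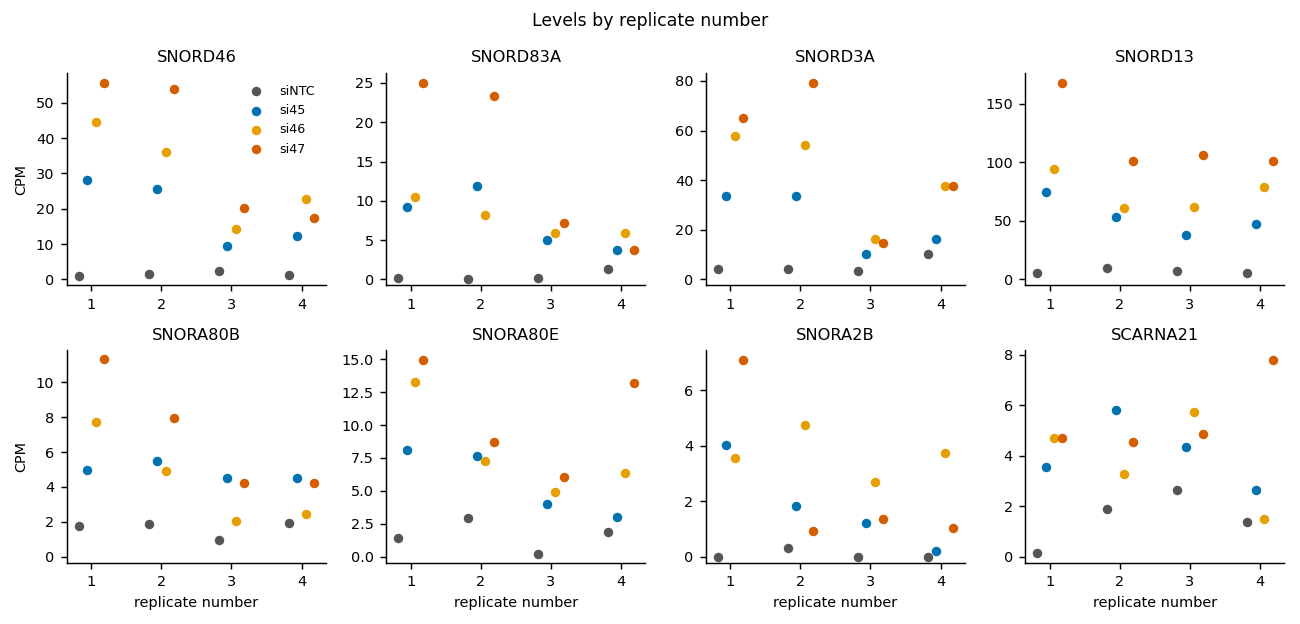
Level (y axis, CPM, linear axis with 1 scale per panel) of 8 of the genes that rose against replicate number (x axis); each point is 1 library and colours mark the siRNA. Within each siRNA, the points of SNORD46, SNORD83A and SNORD3A at numbers 1 and 2 lie above those at 3 and 4, while every knockdown point stays above the siNTC point of its number.

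Summed by class, the box C/D genes showed no overlap between knockdown and control, and the other classes overlapped. The SNORD genes together held 83.5 ± 14.4 CPM with siNTC (SD, n = 4), 188 ± 57.6 with si45, 261 ± 66.5 with si46 and 327 ± 93.3 with si47. The lowest knockdown library, at 129 CPM, was above the highest control, at 102. The SNORA genes together held 216 ± 51.3, 242 ± 17.0, 265 ± 29 and 277 ± 29.6 CPM in the same order, with 2 of 12 knockdown libraries above all controls. The SCARNA genes together held 625 ± 207, 538 ± 96.8, 544 ± 85.9 and 532 ± 51.5 CPM. Without SCARNA22 the latter were 98.6 ± 14.8, 82.2 ± 14.4, 105 ± 12 and 114 ± 9.03. No test was made on these sums, and the difference between classes was not tested.

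The rise of the SNORD sum lay mostly in the genes already named. The 18 genes that rose, chosen for that rise, held 21.5 CPM with siNTC and 133, 192 and 266 CPM with si45, si46 and si47. The 305 SNORD genes outside the 9 that rose held 68.0 ± 13.7, 78.4 ± 17.6, 98.1 ± 22.1 and 95.6 ± 15.8 CPM. Knockdown and control overlapped for these 305, with 6 of 12 knockdown libraries above all controls. The 489 members that were not tested held 25.4 ± 5.06 CPM with siNTC, 33.8 ± 6.86 with si45, 45.1 ± 10.3 with si46 and 45.7 ± 10.04 with si47, and 10 of 12 knockdown libraries were above all controls for them. The 45 tested members that were not called held 878 ± 261 CPM with siNTC and 801, 833 and 824 CPM after knockdown, with 0 of 12 knockdown libraries above all controls.

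**Figure D4:**
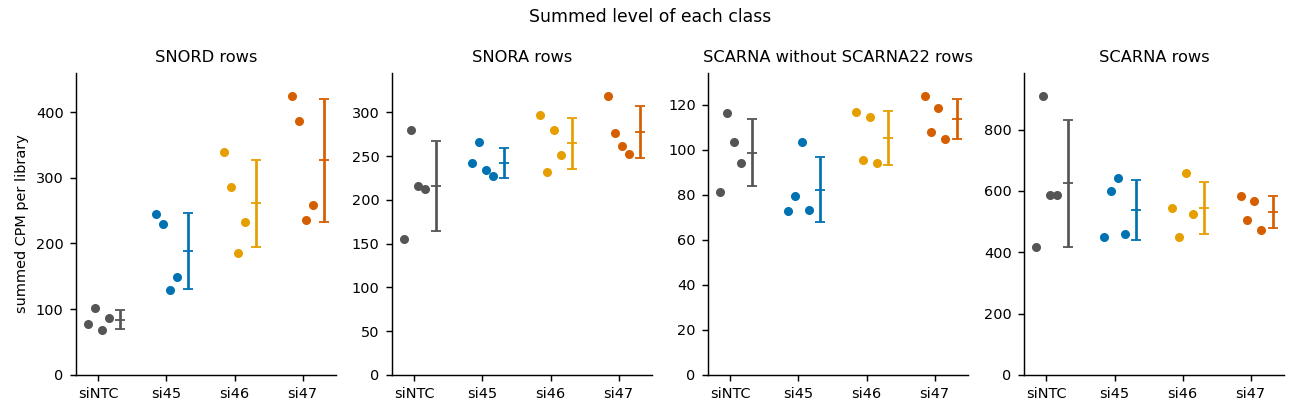
Summed CPM per library (y axis, from 0) of the SNORD, SNORA and SCARNA genes, and of the SCARNA genes without SCARNA22, by group (x axis); points are libraries, bars are mean ± SD of 4. The 12 knockdown libraries of the SNORD panel run from 129 to 425 CPM, all above the 4 siNTC libraries, and the other panels overlap.

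Genes named for other RNAs that lack a poly(A) tail were summed in the same way. The other short RNA genes were taken by symbol alone, as 1843 genes of which 557 had counts. Copies that carry such symbols were not sorted out, so the sum is not limited to known working genes. Other short RNA genes, such as spliceosomal, 7SK and Y RNAs, held 3328 ± 452 CPM with siNTC, 3133 ± 476 with si45, 3821 ± 618 with si46 and 3534 ± 676 with si47, with 3 of 12 knockdown libraries above all controls. Replication-dependent histone genes held 4818 ± 421 CPM with siNTC and 3774 ± 679, 3314 ± 440 and 2948 ± 609 CPM with si45, si46 and si47. Their part in the result was not tested.

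Each RNA was compared with its host to see whether the host moved with it. By annotation 450 of the 552 members lie within a host gene on the same strand, and 55 of the 63 tested do, in 52 hosts. The ratio of the RNA to its host differed between knockdown and control in 14 of the 55 pairs (25.5%; two-sided exact permutation test over libraries, adjusted over the pairs). In 13 of the 14 the RNA rose relative to its host, and in the remaining 1 it fell. Of the 14 pairs, 12 hold an RNA already named as risen. For these the ratio is a description and no further evidence, because they were chosen for their rise, and 12 of the 18 risen genes reached the filter's minimum in no control library. There were 13 risen RNAs with a host, and none overlaps an exon of it. The pair that did not differ was SNORA2A against KANSL2, at 1.01 on the log2 scale.

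Hosts moved little where their RNAs rose. The median log2 fold change over the 12 hosts of these 13 pairs was 0.19, from -0.15 for CHD3 to 0.47 for ZFAS1. The median over the 13 RNAs was 3.46. RPL3, the host of SNORD83A, stood at 335 ± 33.7 CPM with siNTC and at 376 ± 30.2, 392 ± 50.6 and 451 ± 81.5 with si45, si46 and si47, a log2 fold change of 0.28 ± 0.0901 (adjusted p = 0.058). SNORD83A rose relative to RPL3 by 3.17 on the log2 scale. SNORD12B rose relative to ZFAS1 by 1.38, SNORD14E relative to HSPA8 by 1.64 and SNORA80D relative to AIMP2 by 1.55. Only ZFAS1, at 0.47 ± 0.105, and ODC1, at 0.35 ± 0.0967, were themselves called higher among these hosts.

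These ratios were taken after adding 0.5 CPM to RNA and host, which shrinks the ratios of RNAs near 0. With 2 CPM added, 5 of the 55 pairs differed, and with 0.1 CPM added, 16 did.

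**Figure D5:**
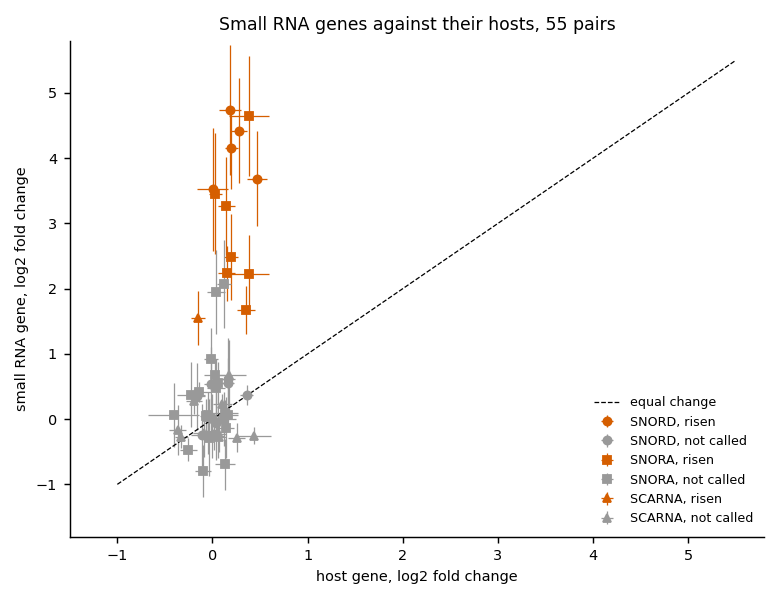
Log2 fold change of each small RNA gene (y axis) against that of its host gene (x axis), mean of the 3 siRNAs over siNTC, for 55 pairs; bars are 1 standard error, shapes mark the class, orange marks RNAs that rose, and the dashed line marks equal change. The orange points rise to 4.74 on the y axis while their hosts stay between -0.15 and 0.47.

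Among the 42 pairs whose RNA was not called, 2 differed. The adjustment ran over all 55 pairs, and 12 pairs with a risen RNA passed in it. It was not repeated over the 42 alone, where the smallest unadjusted p of the exact permutation test was 0.0044. The 2 calls therefore belong to the set of 55, and whether they hold among the 42 was not tested. Over all knockdown libraries, SNORA12 rose relative to CWF19L1 by 0.60 (exact permutation adjusted p = 0.045). The RNA was at 34.4 ± 10.7 CPM with siNTC and 48.6 ± 2.28 with si47, and the host at 24.6 ± 3.05 and 21.1 ± 3.25. The log2 fold change of SNORA12 itself was 0.38 with si45, 0.37 with si46 and 0.50 with si47. That of CWF19L1 was -0.10, -0.10 and -0.21 in the same order. Over all knockdown libraries, SCARNA13 fell relative to SNHG10 by 0.66 on the log2 scale (exact permutation adjusted p = 0.020). The RNA was at 30.1 ± 4.88 CPM with siNTC and 21.4 ± 4.18 with si45, and the host at 9.19 ± 0.541 and 12.6 ± 2.14. The log2 fold change of SCARNA13 itself was -0.49 with si45, -0.24 with si46 and -0.041 with si47, and it was called with none of them. That of SNHG10 was 0.46, 0.35 and 0.50 in the same order. Neither host was called by itself.

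RNAs that share a host with one that rose were mostly without counts. RPL3, HSPA8 and KHDC4 hold 3 members each, and in each of them 2 were at 0. ZFAS1 holds SNORD12, at 0 throughout, and SNORD12C, which had 0 to 4 counts per control library and 1 to 12 per knockdown library and was not tested. EIF4A2, with 5 members, and RPL13A and RPL4, with 4 each, had no count in any of theirs.

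The proteins that bind, build and trim these RNAs were examined from lists of named genes. None of the 4 box C/D core proteins (FBL, NOP56, NOP58 and SNU13) was called in the mean contrast, and the methyltransferase gene FBL had a log2 fold change of -0.22 ± 0.0864 (adjusted p = 0.13). None of the 4 box H/ACA core proteins was called, with DKC1, the pseudouridine synthase gene, at -0.05 ± 0.0666 (adjusted p = 0.72). At an unadjusted p under 0.05 there were 2 in each list, both lower for box C/D and both higher for box H/ACA. Of 11 assembly factors and 17 Cajal body and trafficking genes tested, none was called in the mean contrast, and 1 and 3 had an unadjusted p under 0.05. With si47 taken alone, 1 assembly factor was called, NOPCHAP1, from 37.1 ± 4.11 CPM with siNTC to 53.4 ± 7.57, a log2 fold change of 0.52 ± 0.127 (adjusted p = 0.0059).

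Among 20 genes of 3' end trimming and the RNA exosome, 1 fell in the mean contrast, the exosome subunit gene EXOSC9, from 101 ± 9.28 CPM with siNTC to 86.9 ± 9.37, 81.9 ± 6.34 and 81.5 ± 6.62 with si45, si46 and si47 (log2 fold change -0.28 ± 0.0814, adjusted p = 0.031). With si47 alone EXOSC2, another exosome subunit gene, was lower as well, at -0.42 (adjusted p = 0.0079). None of the 3 debranching and intron release genes tested was called. Of 18 genes of the U3 processome, which assembles on the rRNA precursor, UTP3 rose by 0.29 (adjusted p = 0.036) and no other was called in the mean contrast, while with si47 alone RCL1 was also called, at 0.52 (adjusted p = 0.039). For comparison 3.61% of all genes tested rose and 3.53% fell.

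Of the long non-coding host genes, 8 of the 24 tested rose in the mean contrast and none fell, beside 3.61% and 3.53% of all genes tested. Taken one siRNA at a time, 1 rose with si45, 1 with si46 and 8 with si47, beside 1.01%, 2.14% and 4.91% of all genes. GAS5, at 151 ± 11.5 CPM with siNTC and 187 ± 31.5, 220 ± 19.5 and 245 ± 40.3 with si45, si46 and si47, had a log2 fold change of 0.51 ± 0.0978 (adjusted p = 0.0010). ZFAS1, SNHG8, SNHG7, EPB41L4A-AS1, SNHG25, SNHG12 and SNHG6 were the others, at 0.34 to 0.47. The median of the 24 was 0.20, beside -0.0011 over all genes tested. Of the 5 small RNA genes in SNHG12, 4 were at 0 throughout, and SNORD104, in an intron of SNHG25, was not called.

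Features of the annotated transcripts were set side by side for the 18 genes that rose and the 45 tested genes that were not called. Their annotated transcripts were 76 to 217 bases long, with a median of 135, the same median as for the 45 tested genes that were not called. The longest run of A in the transcript was 2 to 5 bases with a median of 3, and the median was also 3 for the 45. A run of 5 or more A was present in 1 of the 18, SNORD46, in 6 of the 45, and in 19.0% of all 552. All 9 box C/D genes among the 18 held a D box in the last 20 bases, and so did 11 of the 12 SNORD genes not called. ACA exactly 3 bases from the end was held by 7 of the 8 box H/ACA genes that rose and by 17 of the 23 SNORA genes not called. The boxes go with the class names, and no difference in these features was tested. Sequence beyond the annotated ends was not used here.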

How the data were processed

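Total RNA of IMR32 cells was extracted with a column kit and a DNase step, and Lexogen QuantSeq 3' end libraries were sequenced as single-end reads, per the labels' protocols. The authors deposited 1 table of raw counts per Ensembl gene, whole numbers that were not normalized. Per the submitters' processing notes, FastQC 0.11.7, STAR 2.7.2b, edgeR 3.36.0 and limma 3.50.3 were used, with build GRCh38 and no role stated. The counting program, its strand setting, its annotation and its treatment of reads that fit several copies are not given in the sources used here. The siRNA and replicate number in each column name gave its sample, and all 16 libraries were used. The 24 pairs of libraries within groups all differed by more than sampling noise.

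Symbols matched 58434 of the 58787 identifiers. Positions, hosts and sequences came from GENCODE v29, which holds all 552 members. A host is a gene on the same strand whose span contains the RNA and which is neither a small RNA gene nor a pseudogene; where several qualified, the one with the highest mean CPM was taken. Mitochondrial transcripts were not used here, and the host and sequence of SNORD46 are not reported here.

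Tests on the counts used edgeR 4.0.16 under R 4.3.3. The low-count filter was filterByExpr (minimum count 10, minimum total 15), the scaling was TMM, and a single robust quasi-likelihood fit held the means of the 4 groups. Benjamini-Hochberg adjustment ran over all 14193 genes of a contrast, and 0.05 was the threshold. Standard errors were derived from each log2 fold change and its F statistic. CPM values were scaled by the TMM library sizes and were not divided by length. RNA and host were compared by a two-sided exact permutation test of log2((CPM of RNA + 0.5)/(CPM of host + 0.5)), 12 against 4 libraries with 1820 arrangements, adjusted over 55 pairs; pairs that share a host are not independent. The pipeline was tested on simulated counts. Counting intervals are exact and cover counting error only, since reads were not shown to be collapsed by molecular identifiers.

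Members, gene lists, tests and the naming rule were chosen with earlier results of these data known. The rule took the members past the threshold in the mean contrast with their hosts, the 6 with the highest CPM, a set of rRNA-processing and independently transcribed RNAs, members called between siRNAs, pairs that differ, and up to 3 genes per list. SNORA72, SNORA5C, SNORA80A, SNORA80C, SNORD12C, SNORD13E, SNORA7A, SCARNA20, NOPCHAP1, EXOSC2 and RCL1 were named outside it, after their values were seen.

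Deviations from the group means correlated over 0.1 for all 4 replicate numbers between si45 and si47 (r = 0.120 to 0.242), and not for all 4 in any other pair of groups; the values and no label show this pairing. Other settings tried were RLE or upper-quartile scaling, DESeq2 1.42.0, the filter left off or set to 10 counts in each library, separate fits of the compared groups, a block for the replicate number, other offsets for the host ratio, and dropping 1 library at a time.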

Additional observations from a re-analysis of the deposited data

Results flagged for a closer look

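The named genes and the class sums gave 104 groups of 4 libraries, and in 11 of them 1 library stood apart from the other 3 by more than Dixon's critical ratio at the 95% level. For normally distributed values chance alone gives about 1 in 20 groups, or 5.2 here. That number does not apply to groups of very few counts, and many of the named genes were low in the controls. Where all control libraries but 1 are at 0, as for SNORA28, SNORA2B and SNORD14E, the ratio is 1.0 by construction. The 11 can therefore not be set against 5.2. In 8 of the 11 the library is a control.

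With si47, replicate 1 had 168 CPM of SNORD13 beside 101 to 106 in the others, and 7.07 CPM of SNORA2B beside 0.907 to 1.34. Replicate 4 had 7.79 CPM of SCARNA21 beside 4.54 to 4.87.

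Among the controls, siNTC replicate 4 had 10.4 CPM of SNORD3A beside 3.59 to 4.22, and 1.39 CPM of SNORD83A beside 0 to 0.189. Replicate 3 had 0.946 CPM of SNORA80B beside 1.76 to 1.91. Replicate 2 had 0.782 CPM of SNORA7B beside 0.160 to 0.189, 0.313 CPM of SNORA28 and of SNORA2B and 0.156 CPM of SNORD14E beside 0 in the others, and 0 CPM of SNORD12B beside 0.160 to 0.189.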

How the results depend on the processing

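In the mean contrast all 18 calls were kept with RLE factors, upper-quartile factors, no low-count filter, DESeq2 and the replicate block. With at least 10 counts in every library, 2 of the 18 could be fitted, SNORD13 and SNORD3A, and both were called, 2 in all, since the setting removes genes that were low in the controls. That setting left 1, 3 and 3 members with si45, si46 and si47 and 1 for si47 against si45. Without the filter the mean contrast had 26 calls, si45 had 11, si47 against si45 had 2 and si47 against si46 had 1. DESeq2 called 9 with si45 and 1 for si47 against si45. Fits of only the groups compared called 8 with si46 and 10 with si47. Except for the filters, whose construction changes the genes tested, the cause was not tested. Shares of all genes called are not given for these settings, so whether the members moved more than the whole table cannot be read from these counts.

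With the replicate number as a block, si45 had 15 calls, si47 against si45 had 3, beside 2.8% of all genes, and si47 against si46 had 1. The share of all genes is not given for the other block counts. No call of the mean contrast was lost. Only between si45 and si47 were all 4 same-number correlations over 0.1. As a hint from the data, every library correlated best with its own number between si45 and each of the other 3 groups and between si46 and si47, and 5 of 8 did between siNTC and si46 and between siNTC and si47.

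Leaving out 1 library gave 11 to 21 calls in the mean contrast, 1 to 11 with si45, 7 to 18 with si46, 14 to 21 with si47, 0 to 1 for si47 against si45 and 11 to 16 host pairs. Adding 2 CPM left 5 host pairs. Some genes that were not called changed sign: on the log2 scale, without siNTC replicate 1 and without siNTC replicate 2, SCARNA22 was at -0.43 and 0.0049, SNORA79 at -0.13 and 0.41, and SNORA79B at -0.031 and 0.25. At these depths the precision of 5 of the 18 genes is limited by 3 or fewer control counts.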

Other observations

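Several members below the filter had counts mostly after knockdown. SNORD42 on chromosome 4 had 1 count over the controls and 0 to 29 per knockdown library, while its namesake on chromosome 22 had a log2 fold change of -0.25 ± 0.478 (edgeR adjusted p = 0.83). SNORD13P1 had 1 count over the controls and 0 to 11 per knockdown library. SNORD99, in an intron of SNHG12, was at 0 in the controls and had 0 to 11 counts per knockdown library. SNORA51, which overlaps an exon of NOP56, went the other way, with 0 to 5 counts per control library and 0 in all 12 knockdown libraries. Without the low-count filter, edgeR called the first 3 higher and SNORA51 lower in the mean contrast, and these genes were chosen after their values were seen.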
